A study of Mus musculus with 12 samples.

Results

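Small nucleolar RNA (snoRNA) host genes carry snoRNAs in their introns. Of 8 such mouse genes with non-coding spliced products, chosen by symbol, 3 had an entry among the 17419 genes of the deposited table. These were Snhg6, Snhg12 and Snhg15. Gas5, Snhg1, Snhg3, Snhg5 and Snhg8 were not analysed here. RNA came from wild-type NIH-3T3, an established line of mouse fibroblasts, given 4-thiouridine (4sU) at 800 µM for 15, 30, 60, 90 or 120 min, or no 4sU (no4sU). Each of the 6 groups had 2 libraries, A and B. By its title, the series asks how the labelling duration biases quantification.

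4sU resembles uridine and is taken up into RNA as it is made. In SLAM-seq, iodoacetamide alters it so that it is read as C, and the new-to-total ratio (NTR) is the share of a gene's RNA estimated to have been made during labelling. The NTR therefore separates old from new RNA within a library, while the total count of a gene should not depend on the label.

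As background, splicing of a host transcript releases the intron from which the snoRNA is trimmed. snoRNAs bind proteins and guide the modification of ribosomal RNA, box C/D snoRNAs for ribose methylation and box H/ACA snoRNAs for pseudouridylation. The joined exons can be exported and translated over short reading frames. Many are then destroyed by nonsense-mediated decay, a pathway that acts during translation, so that a host transcript can be short-lived while its snoRNA is stable. The deposited counts are given per host gene. No source used here says whether reads from the snoRNAs themselves entered them.

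In GENCODE M21 on GRCm38, Snhg6 (ENSMUSG00000098234) lies on the minus strand at chr1:9941959-9944118, is a lincRNA, and has 5 annotated transcripts of 2 to 4 exons. Its 3′ end overlaps Mcmdc2, on the opposite strand, by 127 bases. No source used here says whether strand was used in counting, and reads in that overlap cannot be assigned. Snhg12 (ENSMUSG00000086290) lies on the plus strand at chr4:132308623-132311024 and is a lincRNA with 10 transcripts of 2 to 5 exons. Snhg15 (ENSMUSG00000085156) lies on the minus strand at chr11:6525591-6528760 and is a processed transcript with 4 transcripts of 2 to 4 exons. The deposited gene lengths are 816, 1538 and 1631 bases. All are short beside the median of 3596 bases over the 9065 genes whose counts averaged 100 or more.

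The snoRNAs inside these genes are shown because they are what the loci are named for. Snhg6 holds Snord87 (chr1:9942463-9942549, minus strand), which lies outside the exons of all 5 transcripts. Snhg12 holds Snora16a (2 overlapping entries), Snora44, Snora61 and Snord99. An exon of at least 2 of the 10 Snhg12 transcripts overlaps each of them. Snord99 is at chr4:132310691-132310764 on the plus strand. Snhg15 holds Snora9 (chr11:6528033-6528165, minus strand), which an exon of 1 of 4 transcripts overlaps. The sequences, read 5′ to 3′ from GENCODE M21 and GRCm38, have the C box TGATGA and the D box CTGA in capitals for the C/D snoRNAs, and the ACA box for the H/ACA snoRNA.
Snord87: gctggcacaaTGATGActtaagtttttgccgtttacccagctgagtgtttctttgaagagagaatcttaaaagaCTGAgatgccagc
Snord99: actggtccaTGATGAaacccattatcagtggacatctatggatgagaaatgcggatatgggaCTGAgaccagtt
Snora9: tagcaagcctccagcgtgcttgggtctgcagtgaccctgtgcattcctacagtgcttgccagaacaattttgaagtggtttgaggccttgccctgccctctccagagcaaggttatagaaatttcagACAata
The boxes were searched on the RNA strand only. Of 1507 annotated snoRNAs, 24.0% held TGATGA with a later CTGA, and 46.8% had an ACA that ended within 5 bases of the 3′ end.

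The exons carry the transcript that was counted. Many snoRNA hosts begin with a run of pyrimidines, a feature of messages whose translation follows growth signals. The bases around the annotated start were available for 2 of the 3 genes, from RefSeq on GRCm38.p6, and are shown from 15 bases before the start, with a run in capitals where 1 was found. A run was a C followed by at least 4 C or T, with its first base within 10 bases of the start on the RNA strand.
Snhg12 (chr4:132308663-132308702, plus strand): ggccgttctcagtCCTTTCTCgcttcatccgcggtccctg
Snhg15 (chr11:6528736-6528775, minus strand): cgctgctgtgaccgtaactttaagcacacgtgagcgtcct
The Snhg12 window held a run of 8, and the Snhg15 window held none. Such a run was present at 29.0% of 32851 RefSeq promoters, and translation was not measured.

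The estimated counts summed over genes were between 9917026 and 13739380 per library. Mean counts over the 12 libraries were 291.5 for Snhg6, 484.0 for Snhg12 and 376.8 for Snhg15, so all 3 passed the filter on low counts and the minimum of 100 used for the NTR. All 8 fibroblast markers looked up were present, at a summed 16400 to 20200 CPM (reads scaled to the size of the library). The 5 of 7 epithelial, leukocyte and endothelial markers in the table summed to 5.62 to 8.4 CPM. Krt8, Ptprc and Pecam1 were at or near 0. The no4sU libraries stood apart from each other: the mean chi-square per gene between A and B was 9.09, against 1.49 to 1.85 in the labelled groups. Over genes, their log2 difference (A minus B) was related to length (Spearman rho -0.576). Members are short, so the comparisons of 15 min, 120 min and all labelled groups with no4sU are also given without each of those libraries. Those of 30, 60 and 90 min were not run that way. Nothing in the labels says that A and B were separate cultures, so p-values measure only the spread between these libraries.

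The level of all 3 host transcripts was lower in every labelled library than in either unlabelled library. Levels are CPM scaled by TMM, an edgeR method that corrects for differences in composition. Snhg6 was at 31.0 and 32.4 CPM in no4sU A and B. In the A and B libraries of 15 min it measured 25.6 and 26.8 CPM. The later pairs, in order of duration, were 21.8 and 27.5, 22.8 and 23.9, 23.3 and 22.4, and 23.2 and 24.4 CPM. Its labelled libraries thus lay below no4sU from the shortest labelling on and showed no further step down that exceeded the spread of the 30 min pair.

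Snhg12, the most counted member, was at 55.6 and 48.7 CPM in no4sU A and B. Its 15 min pair measured 43.3 and 39.2 CPM. The pairs of 30, 60 and 90 min were 37.0 and 35.7, 36.3 and 40.2, and 40.2 and 36.1 CPM, and that of 120 min was 46.9 and 46.7 CPM. Its lowest group was 30 min, and its 120 min libraries lay above all the other labelled libraries.

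Snhg15 was at 39.5 and 39.2 CPM in no4sU A and B. Its labelled pairs, in order of duration, were 31.3 and 31.9, 30.8 and 35.3, 28.6 and 31.1, 34.4 and 30.5, and 30.4 and 32.2 CPM. The labelled groups overlapped one another. Labelled libraries that all lay below both no4sU libraries were found in 214 of 11564 genes tested (1.85%), and the reverse in 1.98%.

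**Figure D1:**
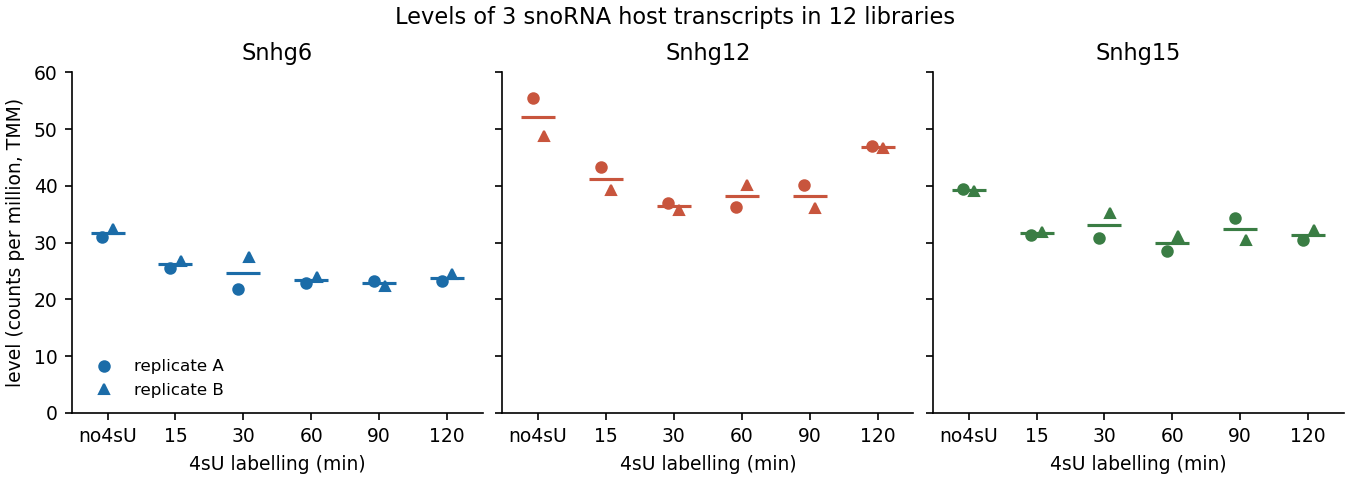
Level in CPM (linear axis from 0) of Snhg6, Snhg12 and Snhg15 in each library, by labelling group; circles are replicate A, triangles replicate B, and bars the mean of 2. For each gene the 10 labelled libraries lie below both no4sU libraries, and Snhg12 is higher at 120 min than at the other durations.

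Divided by the deposited length, the mean level in no4sU was 38.9 ± 1.24 CPM per kb (SD, n = 2) for Snhg6, 33.9 ± 3.13 for Snhg12 and 24.1 ± 0.147 for Snhg15. Snhg15 was the lowest in all 6 groups, with no overlap of libraries. Snhg6 was above Snhg12 without overlap in no4sU and at 15 to 90 min. At 120 min the order of these genes was the reverse, with 30.4 ± 0.133 CPM per kb for Snhg12 and 29.2 ± 0.988 for Snhg6. The deposited length need not be that of the transcript used in these cells, and no test between genes was run.

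Over the 5 labelled groups together, all 3 members were lower than in no4sU by edgeR's quasi-likelihood test (Benjamini-Hochberg adjusted over 11564 genes). That comparison was chosen after seeing the data. It called 0.605% of the genes tested, and 0.415% (48 genes) lower. The log2 fold change was -0.40 ± 0.0751 (SE; edgeR adjusted p = 0.0207) for Snhg6, -0.38 ± 0.0652 (adjusted p = 0.0120) for Snhg12 and -0.31 ± 0.0676 (adjusted p = 0.0376) for Snhg15. These correspond to 0.760, 0.771 and 0.805 of the unlabelled level, and all 10 labelled libraries were on the lower side. In bulk RNA, fewer copies per cell and fewer cells with the transcript cannot be told apart.

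Without no4sU A or B all 3 members were called lower, but far more genes were called as well: 967 of 11714 (524 lower) without A and 1398 of 11690 (442 lower) without B. The median of the 965 genes 800 to 1700 bases long was -0.01 in the comparison with all libraries. Their median was -0.06 at 15 min against no4sU and 0.0985 at 120 min against no4sU. Leaving out a labelled library ended some calls: Snhg12 stayed past the threshold in all 12 cases (edgeR adjusted p at most 0.0401). Snhg6 missed it without 15 min A, 15 min B, 90 min B or 120 min A, with adjusted p 0.0519 to 0.0651 and 15 to 20 genes called in all. Snhg15 missed it in 9 of 12 cases, which were every labelled library except 30 min B, with adjusted p 0.0570 to 0.0935. The log2 changes stayed between -0.47 and -0.28. Scaling up new RNA to offset the loss implied by the relation of fold change with NTR ended all 3 calls, at -0.30, -0.23 and -0.19 (adjusted p = 0.249, 0.296 and 0.432). It ended most calls of other genes too: 5 of 11595 genes were called in that fit, 1 of them lower.

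The separate durations share the same no4sU libraries and are therefore not independent of one another. At 15 min the log2 changes were -0.28 for Snhg6 (unadjusted p = 0.0103), -0.33 for Snhg12 (0.00100) and -0.31 for Snhg15 (0.00217). None passed after adjustment (edgeR adjusted p = 0.911 for each), and none of the 11564 genes did (0.0% called), with 618 genes at an unadjusted p below 0.05. DESeq2 also called 0 genes, with 240 at that unadjusted level. Without no4sU B, Snhg12 and Snhg15 were called lower (-0.43, adjusted p = 0.00127, and -0.32, adjusted p = 0.0359), in a fit that called 1336 of 11690 genes, 439 of them lower. Without no4sU A no member was called (adjusted p 0.240 to 0.357), and 54 of 11714 genes were. This comparison too was chosen after seeing the data.

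At 30 min the values were -0.37, -0.51 and -0.26 for Snhg6, Snhg12 and Snhg15 (edgeR adjusted p = 0.842, 0.125 and 0.842), and no gene was called (670 had an unadjusted p below 0.05). At 60 min they were -0.44, -0.44 and -0.39 (adjusted p = 0.147, 0.0727 and 0.147), and 2 genes were called (0.0173%). At 90 min Snhg6 (-0.47, edgeR adjusted p = 0.0229) and Snhg12 (-0.45, adjusted p = 0.0158) were lower, where 1.39% of genes were called and 0.943% were lower. Snhg15 was at -0.28 (adjusted p = 0.126). All 3 members were thus below no4sU at each of these durations, and the differences between durations were not tested singly.

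At 120 min against no4sU, 2 of 3 members were lower, where edgeR called 14.2% of genes in either direction and 8.78% lower. Snhg6 was at -0.41 ± 0.0990 (SE, adjusted p = 0.00932) and Snhg15 at -0.33 ± 0.0887 (adjusted p = 0.0198), with both 120 min libraries below both no4sU libraries. Snhg12 was at -0.15 ± 0.0844 (adjusted p = 0.238). Neither call held without 120 min A or without 120 min B, with Snhg6 at -0.37 and -0.45 and Snhg15 at -0.28 and -0.37. Those fits leave 1 library at 120 min and called far fewer genes in all. The fit of only the 4 libraries compared called 171 of 11436 genes. With only the 4 libraries compared, both were also lost (adjusted p = 0.0763 and 0.123), and without no4sU B, Snhg12 was called lower (-0.25, adjusted p = 0.0476), where 1899 of 11690 genes were called. Without no4sU A, Snhg12 was at -0.06 (adjusted p = 0.644) and the other 2 members kept their calls, where 3533 of 11714 genes were called. With new RNA scaled up, Snhg12 turned to 0.16 (adjusted p = 0.401), Snhg6 was at -0.22 (0.315) and Snhg15 at -0.03 (0.924). That fit called 190 of 11595 genes.

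Between the durations, the members were compared at the ends and along the whole range. At 120 against 15 min none of the 3 was called by edgeR or DESeq2, and none had an unadjusted p below 0.05, while edgeR called 19.3% of genes. Snhg6 was at -0.13 ± 0.103 (SE, edgeR adjusted p = 0.381), Snhg12 at 0.18 ± 0.0874 (0.151) and Snhg15 at -0.01 ± 0.0923 (0.955). The 965 genes 800 to 1700 bases long had a median of 0.15 in this contrast, close to the value of Snhg12. The sign for Snhg15 turned without 15 min B (0.0026) or without 120 min A (0.03). With new RNA scaled up, all 3 were positive (0.06, 0.49 and 0.28), and Snhg12 was called (edgeR adjusted p = 0.00241). That fit called 252 of 11595 genes, 80 of them higher. The scaling left 15 min unchanged and raised each gene at 120 min by its own NTR, so upward shifts of the members were built in.

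Across the 10 labelled libraries, which leave no4sU out, Snhg12 rose by 0.12 ± 0.0451 log2 per hour of labelling (edgeR adjusted p = 0.0366 over 11526 genes), where 37.8% of genes changed and 18.3% rose. Snhg6 was at -0.07 ± 0.0485 (0.229) and Snhg15 at -0.01 ± 0.0430 (0.870). The 965 genes 800 to 1700 bases long had a median slope of 0.08 log2 per hour, so short genes in general rose. The Snhg12 call was lost without 30 min A, 30 min B, 120 min A or 120 min B (slopes 0.11, 0.10, 0.08 and 0.07, adjusted p = 0.0732, 0.0861, 0.246 and 0.323). It was also lost with library size alone (0.08, adjusted p = 0.156) and in DESeq2 (0.11, adjusted p = 0.0794). The slope was larger without the 15 min libraries (0.22, adjusted p = 0.00103), without 15 min A (0.17, adjusted p = 0.00335) and with new RNA scaled up (0.32, adjusted p = 9.93e-07). That scaling called 1558 of 11565 genes, 653 of them rising, and it raises a gene by its own NTR. With no4sU included as time 0, Snhg12 turned to -0.04 (adjusted p = 0.655) and Snhg6 was called falling (-0.18, adjusted p = 0.00974).

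Other genes with as much new RNA had other medians in these contrasts. Genes were split into 10 classes of equal size by NTR at 120 min. Snhg12 and Snhg15 were in the highest class (907 genes, median NTR 94.5%), and Snhg6 was in the next. In the highest class the median log2 change was 0.03 at 15 min against no4sU and -0.27 at 120 against 15 min. In the next class these medians were 0.02 and -0.23. At 15 min against no4sU, Snhg12 stood at percentile 0.3, Snhg15 at 0.8 and Snhg6 at 1.2 of the genes of its own class. At 120 against 15 min they stood at percentiles 98.1, 91.5 and 73.1. Within their classes, the members were low in the former contrast and high in the latter. Among the genes of all classes, Snhg12, Snhg15 and Snhg6 stood at percentiles 0.2, 0.3 and 0.7 in the former. In the latter they stood at 84.1, 46.9 and 28.2 of all classes, so only Snhg12 was high there. Genes 800 to 1700 bases long had a median of 0.15 in the latter. Both contrasts share the 15 min libraries, which enter them with opposite sign. At 120 min against no4sU, which does not use them, the class medians were -0.25 and -0.22, and Snhg12, Snhg15 and Snhg6 stood at percentiles 70.1, 32.1 and 13.5 of their classes. The place of the members in their classes is a description and was not tested.

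**Figure D2:**
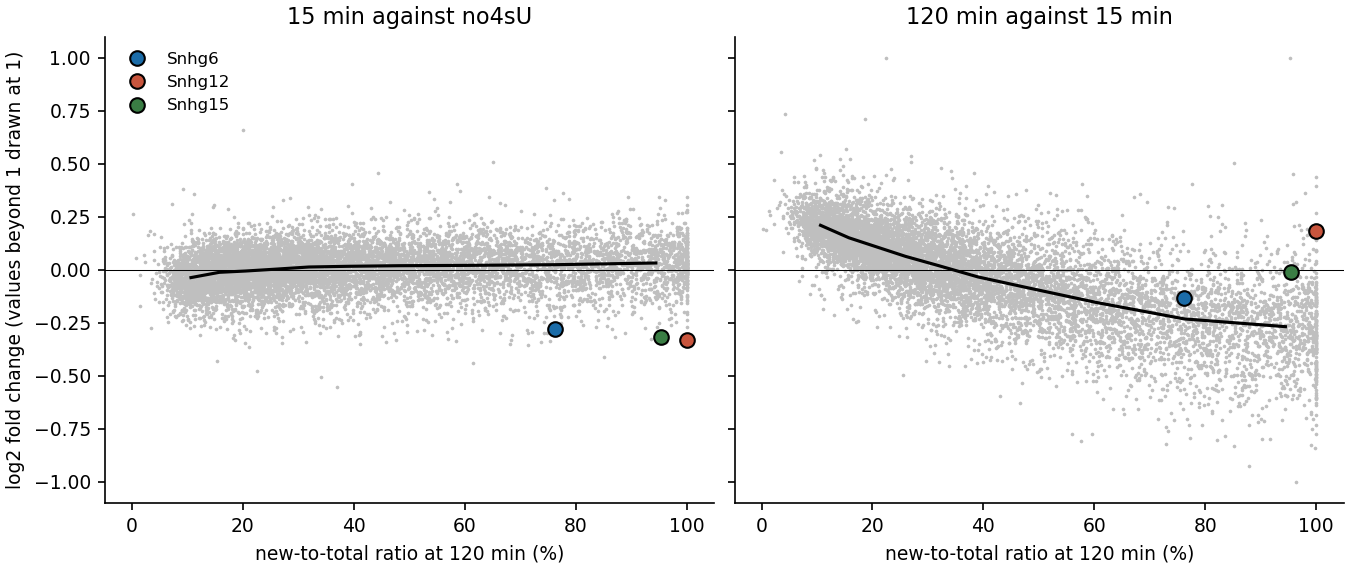
Log2 fold change (y) of 9065 genes with mean counts of 100 or more (grey points) against their NTR at 120 min in percent (x), at 15 min against no4sU (left) and at 120 against 15 min (right); the black line joins the medians of the 10 classes by NTR. Snhg6, Snhg12 and Snhg15 (large points) lie between -0.33 and -0.28 on the left and between -0.13 and 0.18 on the right, where the line falls to -0.27.

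The share of new RNA in the members was among the highest in the table at short labelling. At 15 min the NTR of Snhg12 was 38.3% in A (authors' 90% interval 32.4 to 45.0) and 24.0% in B (19.8 to 29.1). The mean of 31.2% ± 10.1 (SD, n = 2) was the highest of the 9065 genes, whose median was 1.01%. Snhg15 was at 33.2% (26.5 to 41.2) in A and 16.2% (12.3 to 21.3) in B, with 2 genes above its mean of 24.7% ± 12.03. Snhg6 was at 17.0% (12.1 to 23.7) and 14.4% (10.7 to 19.6), with 18 genes above its mean of 15.7% ± 1.78. For Snhg12 and Snhg15, A and B lay further apart at 15 min than their own intervals reach, and the 15 min libraries of these genes overlapped each other. Snhg6 lay below both Snhg12 libraries and overlapped Snhg15.

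By 30 min most of each transcript was new. Snhg12 was at 85.5% and 91.8% in A and B (mean 88.7% ± 4.47), with 1 gene above it. Snhg15 was at 63.3% and 75.7% (69.5% ± 8.83), with 12 genes above it, and Snhg6 at 65.8% and 60.5% (63.1% ± 3.76), with 16 above it. The median gene was at 5.21%. Snhg12 exceeded the other members in both libraries, while Snhg6 and Snhg15 overlapped.

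Snhg12 was then read as wholly new. Its NTR was 100.0% in every library from 60 min on except 90 min A, with 99.5%. These are posterior maxima at the upper limit, and the authors' 0.95 quantiles lie just below them (99.8% at 60 min). The 0.05 quantiles were 93.2% and 93.6% at 60 min and 97.3% and 95.4% at 120 min, so a few percent of old RNA cannot be told from none.

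Snhg15 approached that limit later. Its pairs of 60, 90 and 120 min were 71.0% and 81.7%, 86.9% and 81.5%, and 93.9% and 97.0%. Those of Snhg6 were 71.3% and 74.0%, 84.1% and 77.0%, and 82.0% and 70.5% (63.3 to 77.2 for the last library). Its 90 and 120 min libraries overlapped. Against the other genes Snhg6 moved from percentile 99.8 at 30 min to 85.0 at 120 min, and Snhg15 from 99.9 to 95.6. The median gene was at 15.5%, 24.4% and 35.4% at these durations.

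**Figure D3:**
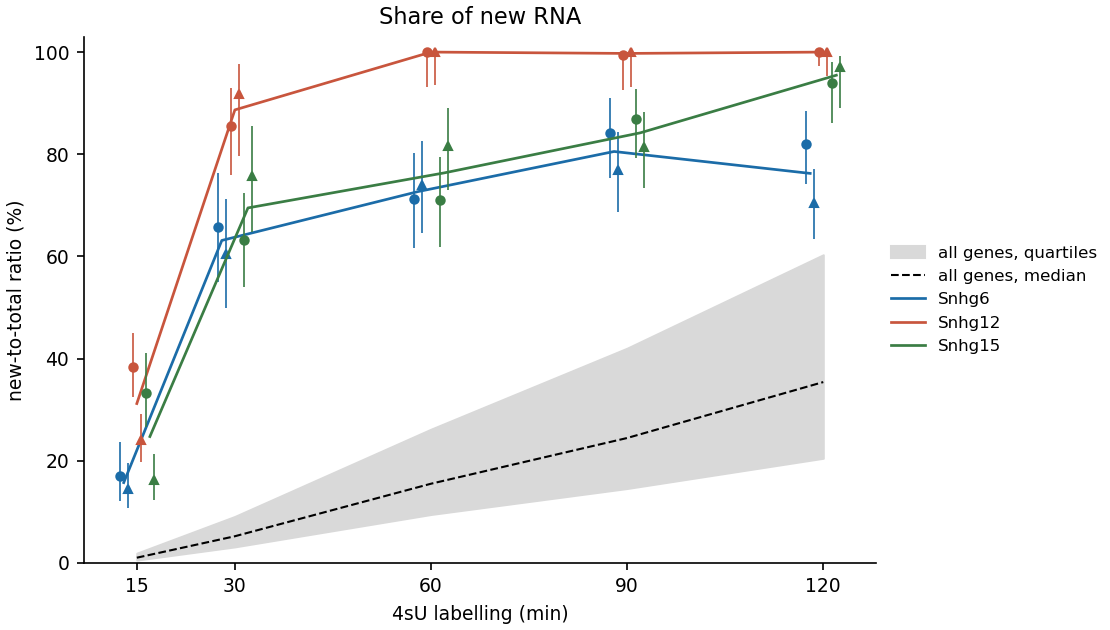
NTR in percent (y) against labelling time in min (x) for the 3 members; circles are replicate A, triangles replicate B, vertical lines the authors' 90% intervals and coloured lines the means of 2. The dashed line and grey band are the median and quartiles of 9065 genes, which the members exceed at each duration, with Snhg12 at 88.7% by 30 min.

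Multiplying the level by the NTR gives the new and the old part of each transcript. In order of duration, new Snhg12 RNA measured 13.01 ± 5.06 CPM (SD, n = 2), 32.2 ± 0.831, 38.2 ± 2.75, 38.1 ± 2.71 and 46.8 ± 0.208 CPM. Its old part fell from 28.2 ± 2.22 CPM at 15 min to 4.14 ± 1.73 at 30 min. New Snhg15 RNA measured 7.79 ± 3.69, 23.1 ± 5.10, 22.9 ± 3.65, 27.4 ± 3.51 and 29.9 ± 1.93 CPM at the successive durations. Its old part was at 23.8 ± 4.13 CPM at 15 min and 1.41 ± 0.623 at 120 min. New Snhg6 RNA measured 4.10 ± 0.335 CPM and then 15.5 ± 1.59 CPM, and stayed between 17.0 and 18.4 CPM from 60 min on. Old Snhg6 RNA, in order of duration, measured 22.1 ± 1.17, 9.16 ± 2.40, 6.37 ± 0.236, 4.43 ± 1.025 and 5.69 ± 2.13 CPM. New and old parts together made a nearly flat total for Snhg6 and Snhg15 from 15 min on. For Snhg12 the new part was nearly the whole level from 60 min on.

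An apparent half-life follows from each NTR if levels are constant and decay has a constant rate. The members were lower with label than without it, so the values describe the NTR in units of time and are not measured decay. At 30 min the apparent half-life was 9.53 ± 1.74 min (SD, n = 2) for Snhg12, 17.7 ± 4.30 for Snhg15 and 20.9 ± 2.14 for Snhg6, against a median of 368 min over all genes. At 15 min it was 29.7 ± 11.6, 42.2 ± 23.3 and 61.3 ± 7.57 min for the same genes. Snhg12 gave no value from 60 min on, since its NTR exceeded 0.99. For labelling of 60, 90 and 120 min, Snhg15 gave 29.1 ± 6.44, 33.9 ± 4.40 and 26.7 ± 4.24 min. Snhg6 gave 32.1 ± 1.73, 38.2 ± 6.02 and 58.3 ± 13.9 min. The median over all genes went the other way, from 247 min at 60 min to 198 min at 120 min.

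**Figure D4:**
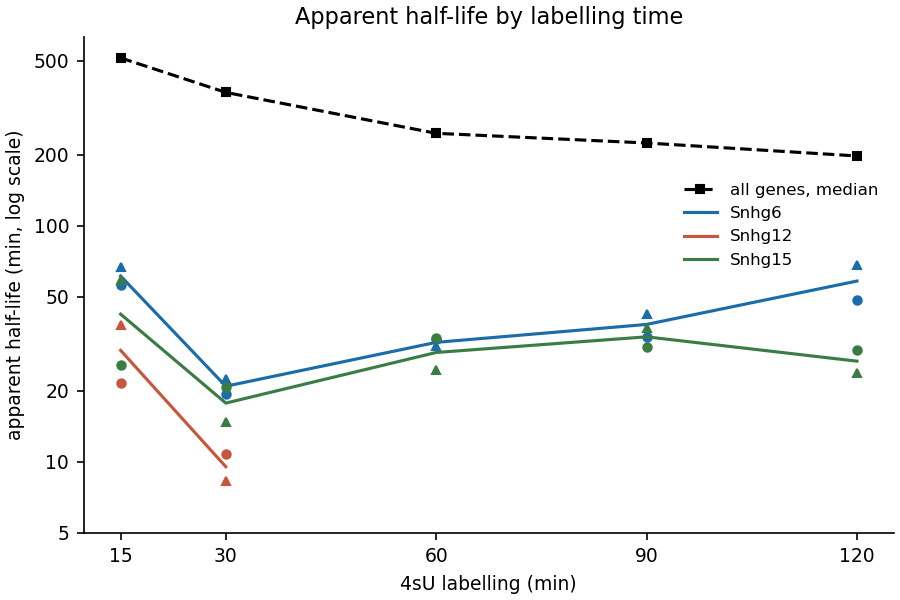
Apparent half-life in min (y, log scale) against labelling time in min (x) for Snhg6, Snhg12 and Snhg15 (circles replicate A, triangles replicate B, lines the means of 2) and the median of 9065 genes (dashed). Snhg12 has values at 15 and 30 min only; from 30 to 120 min Snhg6 goes from 20.9 to 58.3 min while the median gene goes from 368 to 198 min.

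The change of the apparent rate, which is the inverse of this half-life up to a constant, was tested with limma over the 8 libraries from 30 to 120 min. Of 7830 genes with an NTR between 0.01 and 0.99 in all 8, 73.5% changed: 71.7% rose and 1.76% (138 genes) fell, with a median slope of 0.51 log2 units per doubling of the labelling time. Both members that could be tested fell. Snhg6 fell by 0.68 ± 0.108 (SE, limma adjusted p = 0.000438) and Snhg15 fell by 0.37 ± 0.144 (limma adjusted p = 0.0425). Only 21 and 112 tested genes had a lower slope. Snhg12 was not tested because its NTR exceeded 0.99. The same limit removes a gene that is mostly new at 30 min if its rate rises as the median rate did. Genes as new as Snhg6 and Snhg15 could thus enter almost only with a rate that fell or stayed flat. Their direction and ranks are therefore largely set by this limit, and the test cannot tell a true fall from it.

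Snhg6 kept its call without any of the 8 libraries. Snhg15 kept it only without 60 min A or 120 min B. It missed it without 30 min A (-0.41, limma adjusted p = 0.0710), 30 min B (-0.19, 0.273), 60 min B (-0.37, 0.0577), 90 min A (-0.36, 0.0709), 90 min B (-0.32, 0.0707) or 120 min A (-0.40, 0.0650). With the 15 min libraries added, Snhg6 was at -0.02 (0.889) and Snhg15 at 0.03 (0.840). From 60 min on, Snhg15 was at 0.08 (0.818). The share of new RNA at 30 min moves with this result: of the 71 tested genes with at least 25% at 30 min, 7 fell and 38 rose, and the only 2 with at least 50% were Snhg6 and Snhg15. Its part in the result was not tested.

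The genes most like the members were those whose mean NTR at 30, 60, 90 and 120 min had the smallest Euclidean distance to the members' median, over 4 durations and 8 libraries. They were Zfp747, a zinc finger gene (distance 0.133), Mab21l1 (0.157), Arrdc3, an arrestin family gene (0.183), Lif, a cytokine (0.190), and Med26, a Mediator subunit (0.196). At 30 min they were between 55.3% (Mab21l1) and 69.0% (Lif) new. From 90 min on they were at 90.0% to 100.0%, above Snhg6 and, at 90 min, above Snhg15 (84.2%). Snhg6 (0.209) and Snhg12 (0.345) were further from the members' median than these genes, and Snhg15 is that median.

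The short-lived coding transcripts Myc and Ier2, a transcription factor and an immediate-early gene, give a scale. Myc was 12.7% new at 15 min, 62.0% at 30 min and 97.1% at 60 min, and Ier2 14.2%, 62.0% and 99.3%. Both were thus close to Snhg6 at 30 min (63.1%) and above Snhg6 (72.7%) and Snhg15 (76.3%) at 60 min. The long-lived Gapdh, Actb and Eef1a1 were at 11.3%, 23.2% and 10.5% at 120 min. At 120 min against no4sU, Myc was lower (-0.34, edgeR adjusted p = 0.00877), and Eef1a1 was higher (0.20, adjusted p = 0.00798).

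Of 14 other non-coding snoRNA hosts looked up, 7 were in the table and 4 had mean counts of 100 or more. They did not form a group. For labelling of 15, 30, 60 and 120 min the NTR of Snhg16 was 21.9%, 78.1%, 96.2% and 94.99%, and that of Snhg20 was 22.2%, 78.8%, 98.6% and 78.6%. Snhg18 reached 27.2% and Snhg4 33.4% at 120 min, close to the median gene. Of the 5 of these hosts that could be tested, 1 was lower at 120 min against no4sU, which was Snhg16 (-0.51 ± 0.148 SE, edgeR adjusted p = 0.0263). In that contrast 8.78% of all genes tested were lower. Over all labelled groups none was called. Snhg16 was at -0.39 ± 0.111 there (SE, edgeR adjusted p = 0.112), a change of the size of the Snhg6 change (-0.40) and larger than that of Snhg15 (-0.31). Its labelled libraries reached 14.94 CPM against 14.75 CPM in the lower no4sU library, so they overlapped, as did those of the other 6 hosts.

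The protein-coding snoRNA hosts, many of which encode ribosomal proteins and translation factors in their exons, held little new RNA. Their median NTR at 30 min was 3.81% over 17 genes, against 69.5% for the members. At 120 min it was 15.3%, from 6.91% for Tpt1 and 9.62% for Rpl23a to 77.8% for Gnl3 and 79.3% for Eif4a2, an RNA helicase of translation initiation. At 120 min against no4sU, Eef2, Rpl23a and Tpt1 rose, by 0.19 to 0.23, and Gnl3 fell (-0.24, edgeR adjusted p = 0.0268), where 5.43% of genes rose. At 120 against 15 min, 11 rose and none fell, where 7.93% of genes rose. Ribosomal protein genes have many near-identical copies, so their counts are uncertain.

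The decay machinery and its coding targets were compared by lists chosen with earlier results known. Over 16 factors of nonsense-mediated decay the median NTR at 30 min was 6.003%, near that of all genes. At 120 min it was 44.7%, from 18.2% for Nbas and 21.9% for Magoh, an exon junction protein, to 87.7% for Casc3, another exon junction protein, and 98.4% for Smg8. At 120 min against no4sU, Casc3 fell (-0.60, edgeR adjusted p = 6.81e-05), and none of the factors rose. None of the 16 was called over all labelled groups.

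Coding transcripts known as targets of that decay had a median NTR of 30.6% at 30 min over 6 genes. Among them Gadd45a, a stress-response gene, and Ddit3, a transcription factor of the stress response, were at 100.0% and 89.3% at 120 min. The splicing factors Srsf3 and Srsf2 were at 37.8% and 42.8%. Of 8 entries tested, 1 fell at 120 min against no4sU, the stress transcription factor Atf4 (-0.28, edgeR adjusted p = 0.00165), and none rose. Of all genes tested, 8.78% fell there.

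The 15 proteins that bind or assemble snoRNAs had a median NTR of 4.89% at 30 min and 31.4% at 120 min. Nufip1 (85.8%) and Nop56 (62.8%), an assembly factor and a core C/D protein, were the highest, and Nop10 (17.5%), a core H/ACA protein, and Ruvbl1 (17.8%), an ATPase of assembly, the lowest. Nufip1 fell at 120 min against no4sU (-0.42, edgeR adjusted p = 0.00286), where 8.78% of genes fell, and the other 14 were not called.

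Of 6 unspliced or nuclear long non-coding RNAs looked up, 4 could be tested. All 4 rose at 120 against 15 min, where 7.93% of genes did. The log2 changes were 1.62 for Malat1, 1.80 for Kcnq1ot1, 0.50 for Neat1 and 0.27 for Meg3 (edgeR adjusted p = 3.90e-05, 3.67e-07, 0.000873 and 0.0128). The Malat1 level in no4sU was 1460 ± 689 CPM (SD, n = 2), so its comparison with no4sU is uncertain. Kcnq1ot1 runs antisense to Kcnq1, and without knowledge of strand their reads cannot be told apart. At 120 min, Kcnq1ot1 (95.2%) and Neat1 (85.2%) had a high NTR, and Malat1 (22.5%) and Meg3 (16.7%) had a low NTR. The Malat1 level was 1050 CPM at 15 min and 3217 CPM at 120 min, a rise larger than an NTR of 22.5% accounts for. Its NTR therefore cannot be taken to mean that most of its RNA was old. The members, with none called in that contrast, lay between -0.13 and 0.18.

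**Figure D5:**
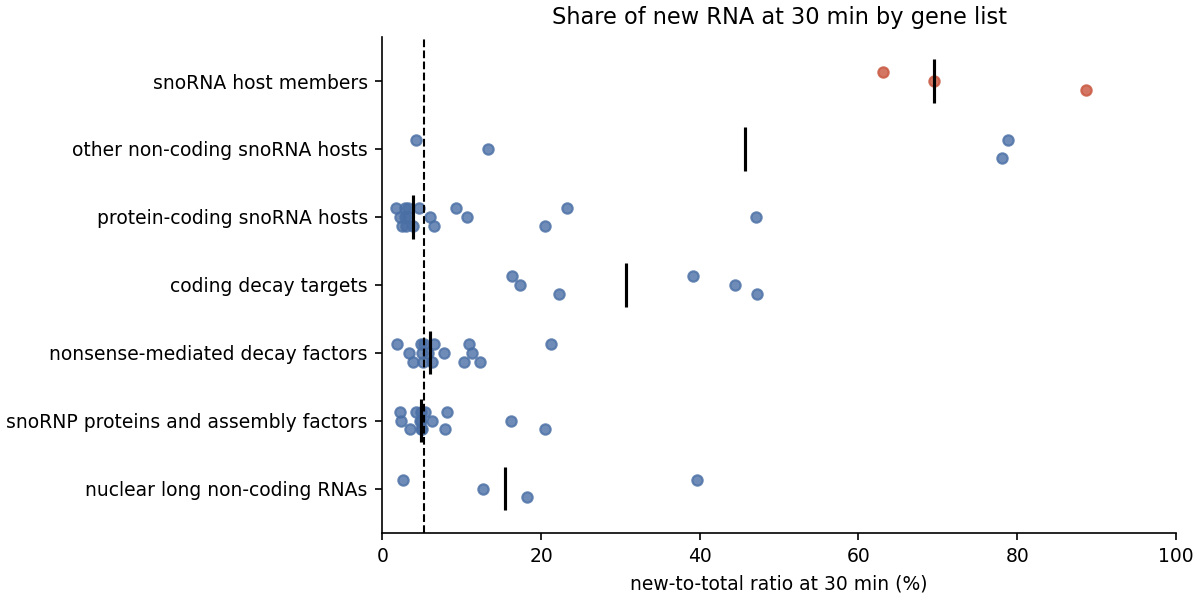
NTR at 30 min in percent (x), as means of 2 libraries, for each gene with mean counts of 100 or more in 7 lists (rows); each point is a gene, black bars are list medians and the dashed line is the median of 9065 genes (5.21%). The members lie between 63.1% and 88.7%, the other non-coding hosts fall far apart, and the protein-coding hosts have a median of 3.81%.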

How the data were processed

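Total RNA of 12 NIH-3T3 libraries was measured by SLAM-seq. Groups, letters and durations come from the labels. The submitters' processing notes name cutadapt, Bowtie2 2.3.0 and STAR 2.7.10b. No source used here gives the counting tool, genome build, annotation or use of strand. The authors deposited estimated counts per gene, 20.4% of them with decimals (beyond 1e-06), and these were rounded for the count tests. The deposited NTR is a fraction per labelled library that, per the file headers, is given as a posterior maximum, a mean and 2 quantiles (0.05, 0.95). The deposited alpha and beta columns, each a score, and the deposited gene length were the other columns; alpha and beta were not used. Reads that carry many conversions can be lost in alignment, which these values cannot show.

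The members were found by symbol. The members and lists were chosen with earlier results of these data known. Genes passing filterByExpr (11564) were fitted with edgeR 4.0.16 (R 4.3.3, TMM, quasi-likelihood, all 12 libraries in 1 fit, no covariate). The slope over labelling time used the 10 labelled libraries, and an adjusted p below 0.05 (Benjamini-Hochberg) was the threshold. The SE is the absolute log2 change divided by the square root of F. limma 3.58.1 fitted log2 of -ln(1-NTR)/time on log2 time. Scripts were tested on simulated data. With 2 libraries a group, the smallest exact two-sided permutation p is 0.333, so single pairs of groups of NTR values were not tested. NTR values were ranked among the 9065 genes whose counts averaged 100 or more. Named were the members, the 5 genes nearest in NTR, and of each list the 2 highest and 2 lowest in NTR at 120 min and, where 5 or fewer, those called at 120 min against no4sU, with 5 reference genes; the nuclear RNAs called at 120 against 15 min were named after their values were seen. Some genes of the lists are not reported here. Alternatives were DESeq2 1.42.0, other scalings, no filter, a replicate block, other libraries in the fit, other NTR estimates, each library left out, and new RNA scaled up by an implied loss. That loss is the share that brings the rank correlation of fold change with NTR to 0 in a library. Scaling by it raises genes with a high NTR the most, so upward shifts of the members are built in. For A and B it came to -29.6% and -2.87% (15 min), 0.43% and -2.56% (30 min) and 30.4% and 32.0% (120 min), and negative values were set to 0. IDs matched GENCODE M21 for 17376 of 17419 genes, a release that may differ from the authors'. Tables and plots were made in Python 3.11.15 (pandas 2.3.3, matplotlib 3.10.9).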

Additional observations from a re-analysis of the deposited data

How the results depend on the processing

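Of the members called at 120 min against no4sU (2), none was left with new RNA scaled up by the implied loss or with only the 4 libraries compared, DESeq2 called 1, and leaving out a library gave 0 to 3. At 120 against 15 min (0 called), scaling up new RNA gave 1, and leaving out a library gave 0 in each case. Over labelling time (1 called), library size alone and DESeq2 gave 0, scaling up new RNA gave 2, and leaving out a library gave 0 to 1. At 15 min against no4sU (0 called), leaving out a library gave 0 to 2. Over all labelled groups (3 called), scaling up new RNA gave 0 and leaving out a library gave 1 to 3. DESeq2 gave no adjusted p for the members there. For the apparent rate (2 called), adding 15 min gave 0, 60 to 120 min alone gave 1, and leaving out a library gave 1 to 2. The number of genes called differed between these fits. For the apparent rate it was 5755 of 7830, against 1876 of 2202 with 15 min and 2589 of 8606 from 60 min on. At 120 min against no4sU DESeq2 called 1059 of 8649 genes, and edgeR 1643 of 11564. Over labelling time DESeq2 called 3692 of 10855 genes and library size alone 4203 of 11526, against 4362 of 11526. The members' median NTR at 120 min (95.5%) was 87.6% and 98.6% by the 0.05 and 0.95 quantiles, and 93.9% to 97.0% with a library left out. The median apparent half-life of Snhg6 and Snhg15 there (42.5 min) was 39.1 to 45.9 min with a library left out.

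Scaling up new RNA turned Snhg12 at 120 min against no4sU to 0.16, Snhg6 and Snhg15 at 120 against 15 min to 0.063 and 0.28, and their slopes over labelling time to 0.0569 and 0.17 (edgeR adjusted p = 0.465 and 0.00405). With no4sU as time 0, the Snhg12 slope was -0.04 and the 1 member called was Snhg6 (-0.18), falling. Leaving out a library turned Snhg15 at 120 against 15 min (-0.0602 to 0.0339; 0.0026 without 15 min B) and its slope over labelling time (-0.0295 to 0.0123, the latter without 30 min B; 0.0039 without 120 min A). The rate slope of Snhg15 turned to 0.0309 with 15 min and to 0.0799 from 60 min on. Apart from that scaling, the cause of these turns was not tested.

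The labels do not say whether A and B pair the libraries across groups, and differences between A and B were only weakly shared. Of 15 pairs of groups, 3 had a correlation of deviations above 0.1 (lowest -0.13, highest 0.15). With a replicate block the members called were 2, 0, 1, 0, 3 and 2 in the comparisons above, in that order, and the genes called at 120 min against no4sU were 1737 in place of 1643. Estimated counts of 230 to 681 per member and library, and 2 libraries a group, limit what differences can be seen.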

Other observations

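Of the hosts not chosen as members, Epb41l4aos had a mean count of 95.1, just under the minimum of 100 used for the NTR. It was 3.65% new at 15 min, 41.7% at 30 min and 52.0% at 120 min, and its level was at -0.31 over all labelled groups against no4sU (edgeR adjusted p = 0.305). Snhg9 and Snhg10 had mean counts of 3.75 and 7.42, too few to describe.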
